A study of Arabidopsis thaliana with 6 samples.

Results

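The WRKY transcription factors of Arabidopsis thaliana were described here across leaf transcriptomes of wild-type plants and of transgenic lines. The members were 50 loci chosen by locus identifier as WRKY family genes, without TTG2, out of 21981 genes in the deposited table. Of these, 48 had a row (WRKY26 and WRKY45 had none), and 43 averaged 1 FPKM or more across the 6 samples, the limit for testing. All samples were leaves of 4-week-old plants of the Col-0 accession, 3 of them wild type and 3 titled as transgenic lines 1, 2 and 3, with 1 sample for each line. The labels name neither the transgene nor its promoter, and do not say whether the lines came from separate transformants or whether leaves were pooled. A drought treatment is mentioned in the same words for both groups, so the labels do not say whether watering differed, and each p-value reflects sample-to-sample spread, which may be purely technical.

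WRKY factors are plant transcription factors that bind the W box, a promoter element with the core TTGAC, through a DNA-binding domain that holds a zinc finger. Group I proteins carry a pair of these domains, group II proteins carry a single one and fall into subgroups IIa to IIe, and group III proteins have a different form of the zinc finger. In leaves many family members are induced within minutes to hours by pathogen patterns, wounding, reactive oxygen and salicylic acid, some are phosphorylated by MAP kinases, and several promote or delay leaf senescence. Many WRKY genes hold W boxes in their own promoters and are regulated by other members. The groups used here had 9 (I), 33 (II) and 8 (III) members.

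Values are FPKM as deposited, a unit meant to scale fragments for transcript length and library size, so levels can be compared between genes. Summed over all genes they came to 970376 to 982620 in the wild-type samples, against 1261802 to 1278449 in the lines. Sums of FPKM times exonic length in kb also differed. They were 1422207.6 to 1446079.7 in the wild-type samples and 1829336.5 to 1857841.4 in the lines. The scaling may thus differ between the groups, and what the authors divided by is not given. Changes are given as lines minus wild type in log2(FPKM + 1), a scale that shrinks the change of genes with low values, and a gene was called at a limma adjusted p under 0.05 over the 17093 genes tested. Means are given ± SD over 3 samples. The leaf markers RBCS1A, LHCB1.1 and CA1 were abundant in every sample and all 3 rose, with a summed level of 14410 to 14976 FPKM in the wild-type samples against 24759 to 25522 FPKM in the lines. The seed markers CRA1 and OLEO1 were at or near 0, the root iron transporter gene IRT1 was at 0 in 5 of the 6 samples, and the flower markers AP1, AP3, PI and AG summed to 2.70 to 7.68 FPKM. PYK10, a beta-glucosidase gene mostly known from roots and hypocotyls, was at 112 ± 3.66 FPKM in the wild-type samples and 70.9 ± 3.43 FPKM in the lines. In leaf tissue, fewer cells that express a gene and less RNA per cell cannot be told apart.

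Of the 43 tested WRKY genes, 16 rose and 11 fell in the transgenic lines, and 16 were not called. Among all genes tested, 40.7% were called, 25.0% higher and 15.7% lower, against 37.2% higher and 25.6% lower of the WRKY genes. At least a 2-fold change on the log2(FPKM + 1) scale was reached by 11 of the risers, where 4.19% of all genes tested did so, and by 5 of the fallers, where 3.28% did. The 3 lines lay all above the 3 wild-type samples in 19 WRKY genes (30.2% of all genes tested) and all below in 14 (22.0% of all genes tested). The median log2 fold change of the WRKY genes was 0.06, beside 0.03 for all genes tested. The split depended on scaling. After quantile normalization 18 members were higher and 9 lower (all genes 19.2% and 20.1%). With values rescaled to TPM, 15 were higher and 19 lower (all genes 11.2% and 48.9%). Rescaling to TPM moved the median of all genes to -0.31 and that of the WRKY genes to -0.27. The 2-fold count of risers depended on scaling too. After quantile normalization WRKY11, WRKY15, WRKY18, WRKY22 and WRKY40 fell short of 2-fold (log2 changes 0.76 to 0.88). As TPM these genes and WRKY6 did (0.74 to 0.83). The other 2-fold risers and all 5 such fallers stayed at least 2-fold in both. The share of all genes at 2-fold under these scalings is not given here. Of the 27 called members none turned direction under the alternatives run, 14 for 21 of them and 13 for the 6 that a filter of 5 FPKM removed.

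**Figure D1:**
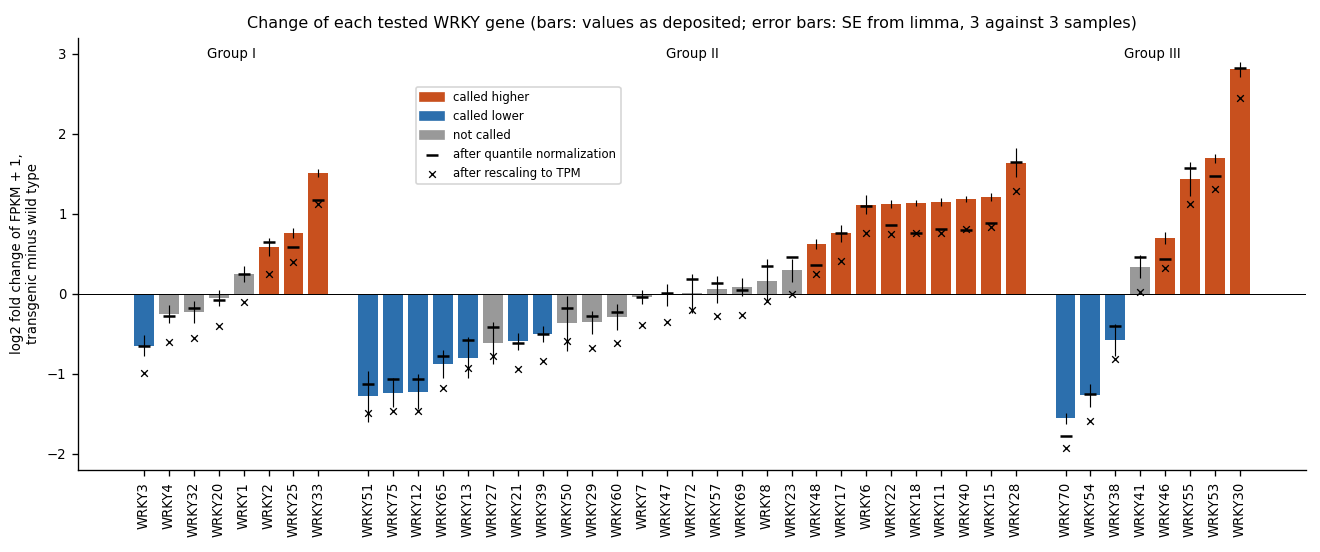
Log2 fold change of FPKM + 1 (transgenic minus wild type, vertical axis) of the 43 tested WRKY genes, ordered within groups I, II and III; bars are the values as deposited with the SE from limma (3 against 3 samples), dashes and crosses the values after quantile normalization and rescaling to TPM. WRKY30 stands highest at 2.80 and WRKY70 lowest at -1.55, both in group III.

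Group III held the widest range of changes, from -1.55 to 2.80. Of its 8 tested genes 4 rose, 3 fell and 1 was not called, where 25.0% of all genes tested were called higher and 15.7% lower. In 5 the lines lay all above wild type and in 3 all below, as in 30.2% and 22.0% of all genes tested. By comparison, the log2 fold changes of group I ran from -0.65 to 1.51 (3 higher and 1 lower of 8 tested, median 0.10) and those of group II from -1.28 to 1.64 (9 higher and 7 lower of 27 tested, median 0.00). The median of group III was 0.52. These counts describe the listed genes, and differences between the groups of the family were not tested.

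The promoters of the group III genes that rose and fell the most, and of WRKY33, the group I gene with the largest rise, are shown because W boxes are the sites that WRKY factors bind. Each is the 250 bases before the annotated gene start, 5′ to 3′ on the strand of the gene, from the TAIR10.1 genome of RefSeq, with every TTGAC (or GTCAA, the same letters on the other strand) in capitals. The windows are chr5:8154711-8154960 (minus strand) for WRKY30, chr4:12393983-12394232 (minus) for WRKY53, chr2:16107985-16108234 (plus) for WRKY33, chr3:20910624-20910873 (minus) for WRKY70 and chr2:17002529-17002778 (minus) for WRKY54.
WRKY30: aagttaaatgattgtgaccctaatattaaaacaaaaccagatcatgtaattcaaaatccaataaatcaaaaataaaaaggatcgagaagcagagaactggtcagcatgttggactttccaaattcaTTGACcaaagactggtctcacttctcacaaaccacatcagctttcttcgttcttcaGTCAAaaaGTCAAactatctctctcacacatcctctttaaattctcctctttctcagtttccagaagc
WRKY53: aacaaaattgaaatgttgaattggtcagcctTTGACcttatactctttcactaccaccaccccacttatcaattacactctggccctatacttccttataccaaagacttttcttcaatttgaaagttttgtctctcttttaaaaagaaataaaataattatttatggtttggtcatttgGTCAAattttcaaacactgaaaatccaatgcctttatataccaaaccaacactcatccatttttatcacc
WRKY33: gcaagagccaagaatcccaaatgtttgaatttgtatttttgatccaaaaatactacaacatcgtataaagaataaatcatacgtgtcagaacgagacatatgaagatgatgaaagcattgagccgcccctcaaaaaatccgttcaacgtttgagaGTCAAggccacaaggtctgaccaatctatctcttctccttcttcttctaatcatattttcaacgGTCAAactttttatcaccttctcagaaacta
WRKY70: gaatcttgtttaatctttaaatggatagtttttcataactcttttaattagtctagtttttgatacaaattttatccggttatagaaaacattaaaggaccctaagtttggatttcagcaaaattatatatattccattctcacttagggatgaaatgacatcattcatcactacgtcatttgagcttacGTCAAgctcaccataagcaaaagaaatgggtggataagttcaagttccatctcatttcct
WRKY54: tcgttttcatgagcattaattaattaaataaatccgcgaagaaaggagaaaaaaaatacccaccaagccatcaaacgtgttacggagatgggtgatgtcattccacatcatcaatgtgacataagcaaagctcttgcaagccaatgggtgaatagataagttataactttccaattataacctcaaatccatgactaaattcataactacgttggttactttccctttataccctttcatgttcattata

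The promoter of WRKY30 held 3 such matches, those of WRKY53 and WRKY33 held 2 each, that of WRKY70 held 1 and that of WRKY54 none in this window. All matches of WRKY30, WRKY53 and WRKY33 were full W boxes, TTGACC or TTGACT, and the match of WRKY70 was not. Over the tested WRKY genes, TTGAC on either strand was found in 12 of 16 promoters of the genes that rose (75.0%), in 5 of 11 of those that fell (45.5%) and in 6 of 16 of those not called (37.5%). Of the promoters of all genes tested 45.1% held it, of all genes called higher 49.3% and of all genes called lower 41.9%. At least 2 matches were present in 7 of the 16 risers (43.8%), in 1 of the 11 fallers (9.1%) and in 4 of the 16 not called (25.0%). Of all tested WRKY genes 27.9% held at least 2, of all genes tested 14.4% and of all genes called higher 18.5%. Every full W box also counts as a TTGAC match. Whether the number of matches goes with the calls was not tested. WRKY18, WRKY22, WRKY48 and WRKY2 rose with no match in this window, and WRKY29 and WRKY32 held 4 each and were not called. A match is a description of the letters, not a bound site.

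WRKY30 (AT5G24110, chr5:8153115-8154710 on TAIR10.1, minus strand) is a stress-induced gene whose protein binds those of WRKY53 and WRKY70, and its promoter holds the 3 matches shown above. It was at 3.43, 3.95 and 3.38 FPKM in the wild-type samples and 32.3, 30.4 and 30.1 FPKM in lines 1, 2 and 3. All 3 lines stood far above all wild-type samples and close to each other, with a log2 change of 2.80 ± 0.0969 (SE; limma, adjusted p = 8.97e-08). In rank of level among the 48 genes it moved from place 35 in wild type to place 12 in the lines.

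WRKY53 (AT4G23810, chr4:12392370-12393982), an early regulator of leaf senescence, was at 37.3, 36.6 and 37.5 FPKM in the wild-type samples and 119.6, 117 and 130.0 FPKM in lines 1, 2 and 3. The groups did not overlap, and the gene rose with a log2 change of 1.69 ± 0.0594 (SE; limma, adjusted p = 9.47e-08). WRKY46, which acts in defence, in drought responses and in stomatal opening, was at 72.6, 64.4 and 75.1 FPKM in the wild-type samples and 121, 110.0 and 114 FPKM in the lines. It rose with a smaller change than WRKY53 (log2 change 0.70, SE 0.0699, limma adjusted p = 4.75e-05). That change was 0.43 under quantile normalization and 0.32 as TPM, and WRKY46 stayed called in both. WRKY41, a close relative with roles in defence and seed dormancy, was at 4.70, 4.09 and 4.06 FPKM in the wild-type samples and 6.34, 4.71 and 6.04 FPKM in the lines. Its lines were all above wild type, but it was not called (log2 change 0.34, SE 0.143, limma adjusted p = 0.0927), and it passed without line 2 (0.45, limma adjusted p = 0.0407) and after quantile normalization (0.46, limma adjusted p = 0.0256).

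WRKY70 (AT3G56400, chr3:20908711-20910623), a node between salicylate and jasmonate signalling that delays senescence, went the other way. It was at 112, 106 and 118 FPKM in the wild-type samples and 35.4, 36.8 and 40.1 FPKM in lines 1, 2 and 3, a wide gap between groups, and fell with a log2 change of -1.55 ± 0.0683 (SE; limma, adjusted p = 2.74e-07). WRKY54 (AT2G40750, chr2:17000419-17002528), which represses senescence together with WRKY70, was at 15.6, 16.8 and 15.7 FPKM in the wild-type samples and 7.68, 5.85 and 4.97 FPKM in lines 1, 2 and 3. Its highest line was below its lowest wild-type sample, and it fell with a log2 change of -1.27 ± 0.141 (SE; limma, adjusted p = 9.25e-05). WRKY38, a salicylate-induced negative regulator of basal defence, had 2.86, 3.49 and 3.85 FPKM in the wild-type samples and 1.54, 1.64 and 2.78 FPKM in the lines. Its fall of -0.58 (limma adjusted p = 0.0458) was close to the threshold and lost the call without any 1 of the samples except line 3, with limma adjusted p from 0.0552 to 0.15 in those 5 fits, and after quantile normalization (limma adjusted p = 0.146).

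Ratios between members within a sample are free of any factor that scales the whole sample, but not of quantile normalization. For WRKY46 and WRKY41 the log2 changes were 0.70 and 0.34 as deposited, but 0.43 and 0.46 after quantile normalization. WRKY53 and WRKY70 stayed opposite, at 1.47 and -1.77 after it. The ratios given here use the values as deposited. The ratio of WRKY53 to WRKY70 was 0.333, 0.346 and 0.319 in wild type and 3.38, 3.18 and 3.24 in the lines. In wild type WRKY70 was thus the more abundant transcript in every sample, and in the lines WRKY53 was. The mean ratio was 0.333 ± 0.0134 and 3.26 ± 0.102 (SD, n = 3), a 9.81-fold difference. WRKY70 and WRKY54 kept a similar ratio, 6.97 ± 0.609 in wild type and 6.33 ± 1.73 in the lines, with overlapping groups. WRKY55, which promotes salicylate accumulation and senescence, is the neighbour of WRKY54 on chromosome 2. The genes face each other, with their 3′ ends 919 bases apart. WRKY55 was at 1.21, 1.74 and 1.81 FPKM in the wild-type samples and 6.82, 4.08 and 7.46 FPKM in the lines and rose with a log2 change of 1.43 ± 0.216 (SE; limma, adjusted p = 0.000636), so these neighbours were called in opposite directions. The WRKY55 to WRKY54 ratio went from 0.0987 ± 0.0192 to 1.03 ± 0.419, and line 3 stood highest at 1.50. Over the 14 ratios computed, the groups did not overlap in 11. The pairs were chosen with earlier results known, and the share among other gene pairs was not computed. Of single genes tested, 30.2% had all lines above wild type and 22.0% all below, shares that are not a baseline for ratios. In WRKY53/WRKY70, WRKY55/WRKY54 and WRKY22/WRKY29 the first gene had all lines above wild type and the second all below. Those ratios could not overlap, so they add no separate outcome to the single-gene values. In each of the 11 ratios without overlap the two-sided exact permutation p was 0.1, the smallest that 3 against 3 samples allow. It was 0.127 when adjusted over the 14.

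**Figure D2:**
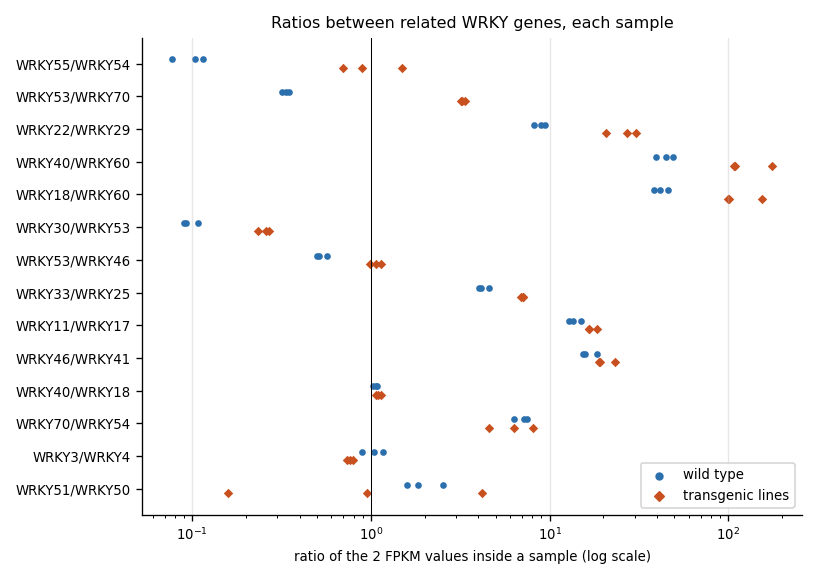
Ratio of the FPKM values of 2 related WRKY genes inside each sample (horizontal log axis) for 14 pairs; circles are the 3 wild-type samples and diamonds the 3 transgenic lines. WRKY53/WRKY70 crosses 1 between the groups, while WRKY40/WRKY18 stays between 1.02 and 1.14 in all 6 samples.

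Among group I genes, WRKY33 (AT2G38470, chr2:16108235-16110766), a MAP kinase substrate that activates camalexin synthesis against necrotrophic fungi, was at 153, 149 and 139 FPKM in the wild-type samples and 409, 439 and 409.9 FPKM in lines 1, 2 and 3. The lines were all well above wild type, with a log2 change of 1.51 ± 0.0523 (SE; limma, adjusted p = 9.12e-08). WRKY25, a relative of WRKY33 with a role in heat and salt tolerance, was at 33.2, 36.0 and 34.5 FPKM in the wild-type samples and 59.2, 61.6 and 57.4 FPKM in the lines, and rose with a log2 change of 0.76 ± 0.0632 (SE; limma, adjusted p = 1.35e-05). After rescaling to TPM the value of WRKY25 was 0.39 (limma adjusted p = 0.000927). The ratio of WRKY33 to WRKY25 was 4.61, 4.14 and 4.02 in wild type and 6.91, 7.12 and 7.14 in the lines, so WRKY33 gained on WRKY25 in every line.

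WRKY2, which acts in zygote polarity and in germination under abscisic acid, rose from a mean of 5.80 ± 0.524 to 9.20 ± 0.569 FPKM (log2 change 0.59, SE 0.114, limma adjusted p = 0.00285). That call was lost after rescaling to TPM (0.25, limma adjusted p = 0.0848). WRKY3 and WRKY4 both serve in resistance to necrotrophic fungi. WRKY3 fell, with values of 17.2, 13.6 and 13.9 FPKM in the wild-type samples and 10.2, 7.68 and 9.48 FPKM in the lines and a log2 change of -0.65 ± 0.132 (SE; limma, adjusted p = 0.00365). WRKY4 had 14.6, 15.2 and 13.4 FPKM in the wild-type samples and 12.9, 10.1 and 12.9 FPKM in the lines, all 3 lines below wild type by a small margin, and was not called (log2 change -0.25, SE 0.115, limma adjusted p = 0.11). After rescaling to TPM WRKY4 was called lower (-0.60, limma adjusted p = 0.00177). The WRKY3 to WRKY4 ratio was 1.03 ± 0.141 in wild type and 0.762 ± 0.0292 in the lines, without overlap. WRKY1 was at 11.4, 11.04 and 10.4 FPKM in the wild-type samples and 13.6, 13.99 and 12.0 FPKM in the lines, all lines above wild type, and was not called (log2 change 0.25, SE 0.0969, limma adjusted p = 0.0701). It passed without line 3 (0.31, limma adjusted p = 0.0441), and its direction turned as TPM (-0.10). WRKY20 and WRKY32 were not called either, with log2 changes of -0.06 and -0.22.

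In subgroup IIa, WRKY40 and WRKY18 were the most abundant WRKY transcripts in both groups. WRKY40 (AT1G80840, chr1:30383561-30385499), a rapidly induced repressor of defence and abscisic acid response genes, was at 353, 365 and 358 FPKM in the wild-type samples and 813, 799 and 844 FPKM in lines 1, 2 and 3. WRKY18 (AT4G31800, chr4:15382777-15385100), its pathogen-induced partner, was at 327, 341 and 349 FPKM in the wild-type samples and 743, 752 and 740.4 FPKM in lines 1, 2 and 3. Both rose without overlap of the groups, by 1.19 ± 0.0386 (SE; limma, adjusted p = 6.55e-08) and 1.13 ± 0.0394 (SE; limma, adjusted p = 9.12e-08) on the log2 scale. Their changes shrank to 0.80 and 0.76 under quantile normalization and to 0.81 and 0.75 as TPM, and both stayed called. The WRKY40 to WRKY18 ratio was 1.08, 1.07 and 1.02 in wild type and 1.09, 1.06 and 1.14 in the lines, with overlapping groups. WRKY60, the third partner of this trio, was at 7.90, 7.45 and 9.08 FPKM in the wild-type samples and 7.46, 7.41 and 4.82 FPKM in the lines. Line 3 was its lowest sample, and it was not called (log2 change -0.29, SE 0.164, limma adjusted p = 0.194). After rescaling to TPM WRKY60 was called lower (-0.61, limma adjusted p = 0.00928). The WRKY40 to WRKY60 ratio went from 44.4 ± 4.82 to 131 ± 38.4.

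Subgroup IIb was mostly low. WRKY6, which acts in senescence and represses the phosphate exporter gene PHO1, was at 9.48, 7.81 and 8.16 FPKM in the wild-type samples and 16.7, 22.2 and 19.9 FPKM in the lines. It rose with a log2 change of 1.11 ± 0.123 (SE; limma, adjusted p = 8.91e-05), and line 2 was highest. WRKY47 and WRKY72, the latter of basal immunity, were not called (log2 fold changes -0.01 and 0.00). WRKY31, WRKY42 and WRKY61 stayed under the mean of 1 FPKM. WRKY31 was between 0 and 0.507 FPKM in all samples. WRKY42, of phosphate homeostasis, had 0.855, 0.624 and 1.52 FPKM in the wild-type samples and 1.06, 0.670 and 0.825 FPKM in the lines, with overlapping groups. WRKY61 had 2.24, 1.04 and 1.54 FPKM in the wild-type samples and 0, 0.0287 and 0.160 FPKM in the lines, all lines below all wild-type samples, and with no filter it was called lower (log2 fold change -1.27, limma adjusted p = 0.00141).

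Subgroup IIc had 2 risers and 4 fallers among 10 tested genes (25.0% and 15.7% of all genes tested). WRKY28, an activator of the salicylate synthesis gene ICS1, was at 7.49, 5.09 and 5.61 FPKM in the wild-type samples and 16.0, 25.1 and 22.1 FPKM in lines 1, 2 and 3. Line 1 was the lowest of the lines and still above all wild-type samples (log2 change 1.64, SE 0.179, limma adjusted p = 8.47e-05). WRKY48, a stress-induced negative regulator of basal resistance, rose from a mean of 60.4 ± 3.99 to 93.3 ± 2.98 FPKM, with a log2 change of 0.62 ± 0.0638 (SE; limma, adjusted p = 5.7e-05), and its value was 0.25 after rescaling to TPM. WRKY75, known from phosphate starvation and leaf senescence, fell with a log2 change of -1.23 ± 0.184 (SE; limma, adjusted p = 0.000598). Its values were 4.94, 5.55 and 4.37 FPKM in the wild-type samples and 2.02, 1.59 and 1.06 FPKM in the lines, so wild type stood above every line.

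WRKY12, which represses secondary wall formation in pith, was at 6.10, 4.61 and 6.09 FPKM in the wild-type samples and 2.78, 1.69 and 1.19 FPKM in the lines and fell with a log2 change of -1.22 ± 0.217 (SE; limma, adjusted p = 0.00171). WRKY13, which acts in stem sclerenchyma and flowering, was at 1.06, 1.95 and 2.08 FPKM in the wild-type samples and 0.901, 0.547 and 0.207 FPKM in the lines. Its call (log2 fold change -0.80, limma adjusted p = 0.0346) was lost when wild-type replicate 2, wild-type replicate 3, line 2 or line 3 was left out, with limma adjusted p of 0.0644 to 0.13. It was also lost after quantile normalization (limma adjusted p = 0.1), with a pseudocount of 0.1 (limma adjusted p = 0.0502) and with the title number as a block (limma adjusted p = 0.0636). WRKY13, and WRKY27 of subgroup IIe, passed the filter of 1 FPKM only through wild type, where they are high. WRKY51 and WRKY50, which repress jasmonate responses, gave a mixed picture. WRKY51 was at 3.51, 7.51 and 4.27 FPKM in the wild-type samples and 0.542, 1.81 and 2.26 FPKM in lines 1, 2 and 3 and fell with a log2 change of -1.28 ± 0.321 (SE; limma, adjusted p = 0.0111). WRKY50 was at 1.91, 2.97 and 2.68 FPKM in the wild-type samples and 3.43, 1.91 and 0.542 FPKM in lines 1, 2 and 3, and was not called (log2 change -0.37, SE 0.346, limma adjusted p = 0.435). Line 1 was the lowest line for WRKY51 and the highest sample of all for WRKY50, and line 3 the reverse among the lines, so the ratio of WRKY51 to WRKY50 ran from 0.158 in line 1 to 4.17 in line 3. Each of these extremes rests on a value of 0.542 FPKM, at unknown read depth. WRKY57, WRKY23 and WRKY8 were not called, with log2 fold changes of 0.06, 0.29 and 0.17. WRKY23, an auxin-responsive gene of root development, passed after quantile normalization (0.46, limma adjusted p = 0.0292).

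In subgroup IId, whose proteins bind calmodulin, 3 of 6 tested genes rose and 2 fell (25.0% and 15.7% of all genes tested). WRKY11 and WRKY17 are negative regulators of resistance to bacteria. WRKY11 was at 109, 111 and 118 FPKM in the wild-type samples and 249, 246 and 256 FPKM in the lines, a clear gap between groups (log2 change 1.14, SE 0.0485, limma adjusted p = 2.28e-07). WRKY17 was an order lower, at 7.28, 8.20 and 9.23 FPKM in the wild-type samples and 15.0, 14.9 and 13.8 FPKM in the lines, and rose with a log2 change of 0.76 ± 0.108 (SE; limma, adjusted p = 0.000459). After rescaling to TPM the log2 fold change of WRKY17 was 0.41 (limma adjusted p = 0.0104). WRKY15, of growth and oxidative stress, was at 111, 112 and 117 FPKM in the wild-type samples and 268, 259.6 and 265 FPKM in the lines and rose with a log2 change of 1.21 ± 0.0449 (SE; limma, adjusted p = 1.12e-07). WRKY21 and WRKY39 fell by 0.59 and 0.50 on the log2 scale (limma adjusted p = 0.00195 and 0.00376), from a mean of 16.2 ± 1.41 to 10.5 ± 1.07 FPKM and from a mean of 12.9 ± 0.956 to 8.84 ± 0.638 FPKM. WRKY39 is known for a role in heat tolerance. WRKY7, a calmodulin-binding repressor of defence, was at 11.2, 11.7 and 11.4 FPKM in the wild-type samples and 11.6, 11.1 and 10.6 FPKM in the lines, with overlapping groups and a log2 fold change of -0.04 on the values as deposited. After rescaling to TPM WRKY7 was called lower (-0.39, limma adjusted p = 0.00574), beside a median of -0.31 for all genes.

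In subgroup IIe, WRKY22 and WRKY29 act downstream of MAP kinases in pattern-triggered immunity. WRKY22 was at 67.5, 66.7 and 67.4 FPKM in the wild-type samples and 145, 145 and 151 FPKM in lines 1, 2 and 3, with little spread inside either group, and rose with a log2 change of 1.12 ± 0.0477 (SE; limma, adjusted p = 2.32e-07). WRKY29 was at 8.30, 7.44 and 7.14 FPKM in the wild-type samples and 7.07, 5.37 and 4.93 FPKM in lines 1, 2 and 3, all lines below wild type, and missed the threshold (log2 change -0.36, SE 0.143, limma adjusted p = 0.0772). It passed without line 1 (-0.49, limma adjusted p = 0.0199) and after rescaling to TPM (-0.68, limma adjusted p = 0.00297). The WRKY22 to WRKY29 ratio was 8.14, 8.95 and 9.43 in wild type and 20.6, 27.1 and 30.6 in the lines. WRKY65 fell from a mean of 7.89 ± 1.31 to 3.85 ± 0.914 FPKM, with a log2 change of -0.88 ± 0.173 (SE; limma, adjusted p = 0.00303). WRKY27, known from bacterial wilt, was at 1.66, 1.64 and 2.23 FPKM in the wild-type samples and 0.282, 1.46 and 1.02 FPKM in the lines and was not called (limma adjusted p = 0.0971), but passed without line 2 (-0.82, limma adjusted p = 0.0417). WRKY69 was not called (log2 fold change 0.08). WRKY14 (1.38 ± 0.332 FPKM in the wild-type samples and 0.486 ± 0.156 FPKM in the lines) and WRKY35 (0.841 ± 0.226 FPKM in the wild-type samples and 0.220 ± 0.273 FPKM in the lines) were below the filter, with the lines below wild type in both. With no filter they were called lower (limma adjusted p = 0.0103 and 0.0349).

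**Figure D3:**
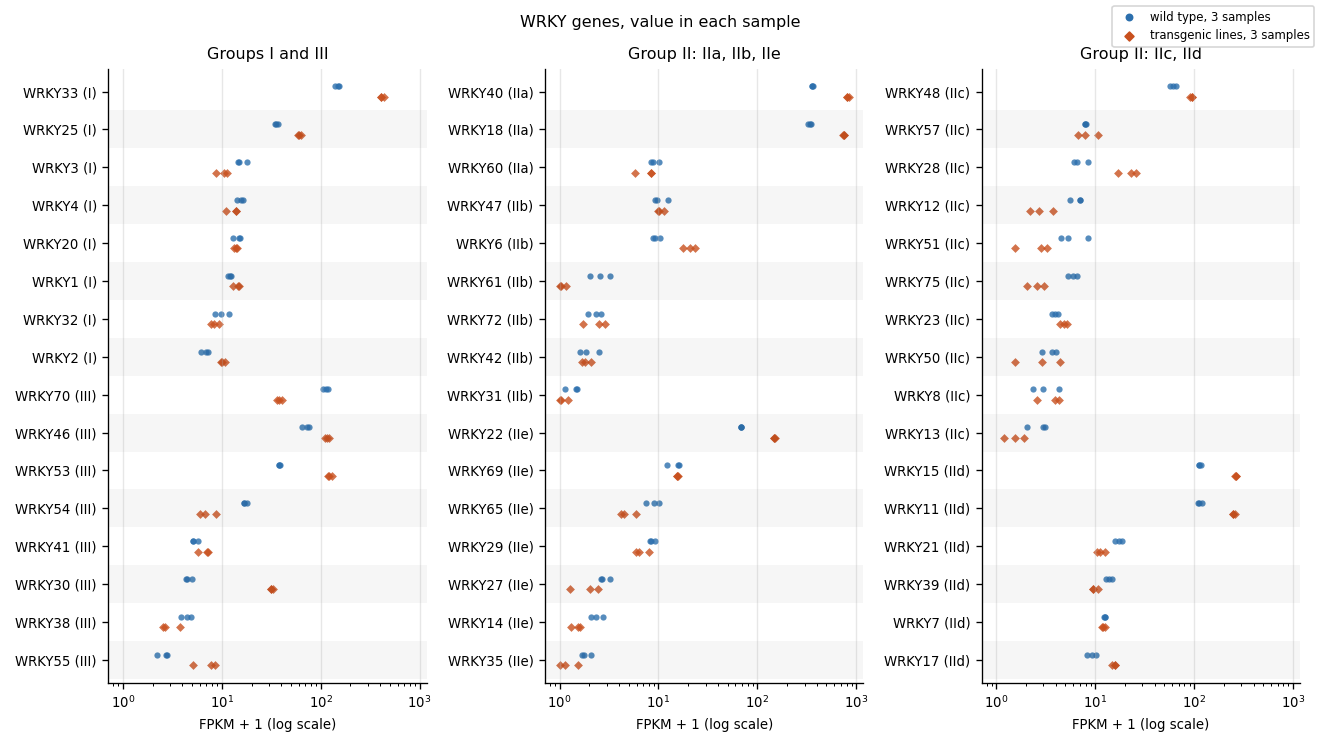
FPKM + 1 (horizontal log axis) in each sample for the 48 WRKY genes with a row, ordered by subgroup and wild-type level; circles are the 3 wild-type samples and diamonds the 3 transgenic lines. WRKY40, WRKY18 and WRKY33 lie farthest to the right in both groups, and the diamonds of WRKY70 lie left of its circles.

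By mean level in wild type the order was WRKY40 (353 to 365 FPKM), WRKY18 (327 to 349) and WRKY33 (139 to 153), and the samples of these 3 did not overlap. WRKY15, WRKY11 and WRKY70 came next with overlapping values of 106 to 118 FPKM, then WRKY46 and WRKY22, which also overlapped, WRKY48, WRKY53 and WRKY25. In the lines WRKY40, WRKY18, WRKY33, WRKY15 and WRKY11 were again the highest, and WRKY70 moved from place 6 to place 11. WRKY40 and WRKY18 together made up 41.0% of the summed FPKM of the family in wild type and 46.9% in the lines. That sum was 1701 ± 17.7 FPKM in wild type and 3338 ± 25.8 FPKM in the lines, a ratio of 1.96, where the sum of all genes tested had a ratio of 1.30.

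Of 11 WRKY genes that averaged 30 FPKM or more, a limit chosen after their values were seen, 10 rose and 1, WRKY70, fell. Among all genes tested at that level 50.7% were called higher and 13.7% lower. The median log2 fold change was 1.13 for these WRKY genes and 0.21 for all genes at that level. Of the 32 WRKY genes under 30 FPKM, 6 rose and 10 fell, where 14.8% and 16.4% of all genes at that level did.

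**Figure D4:**
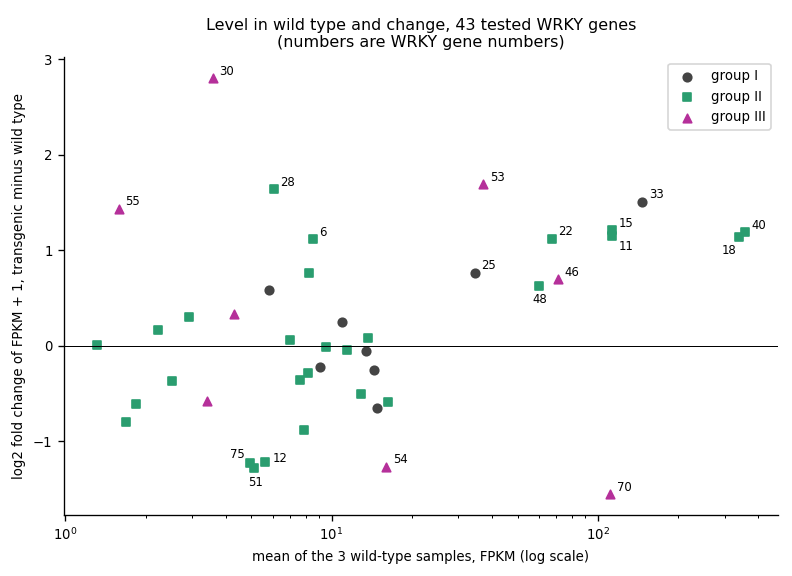
Mean FPKM of the 3 wild-type samples (horizontal log axis) against the log2 fold change of FPKM + 1 (transgenic minus wild type) for the 43 tested WRKY genes, with symbols for groups I, II and III. To the right of 30 FPKM only WRKY70 lies below 0, while WRKY30, WRKY55, WRKY28 and WRKY6 are low genes with large rises.

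The median coefficient of variation over the 43 tested genes was 10.2% among the lines and 9.04% among the wild-type samples, but single genes differed. It was within 1.5-fold in 14 genes, larger than that among the lines in 18 and larger among the wild-type samples in 11. WRKY50 varied most among the lines (73.7%) and WRKY8 most in wild type (44.6%). All 16 risers kept their call when any 1 sample was left out. Of the 11 fallers, WRKY13 and WRKY38 lost it in some of these fits, as given above.

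Of the 48 genes 10 overlap another annotated gene on the opposite strand, and whether the authors counted by strand is not given, so reads of the neighbour could be included in their values. WRKY53 shares 341 bases with AT4G23800, which was at 20.8 FPKM in wild type and 12.9 FPKM in the lines, the opposite direction to WRKY53. WRKY33 shares 26 bases with AT2G38480, at 8.34 and 12.2 FPKM, and 272 bases with AT2G08965, which is not in the table. WRKY40 shares 51 bases with AT1G80850, at 4.84 and 4.40 FPKM. The measured neighbours were far below WRKY33 and WRKY40 in level. WRKY41 shares 517 bases with AT4G11080, at 4.37 and 2.41 FPKM, levels like its own. WRKY2 shares 43 bases with AT5G56280, at 15.2 and 15.7 FPKM, which is above WRKY2 in both groups. WRKY1 shares 166 bases with AT2G04890, at 9.95 and 6.85 FPKM.

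Genes that act with WRKY factors were read from 3 lists. Among VQ proteins, small partners that bind the WRKY domain, 2 of 4 rose and 1 fell (25.0% and 15.7% of all genes tested), with a median log2 change of 0.39 beside 0.03 for all genes. All but SIB2 averaged over 30 FPKM, a level at which 50.7% of all genes tested were called higher. JAV1, a repressor of jasmonate defence, was at 17.5, 21.9 and 18.7 FPKM in the wild-type samples and 43.9, 48.7 and 56.9 FPKM in the lines and rose with a log2 change of 1.32 ± 0.113 (SE; limma, adjusted p = 1.73e-05). MKS1, which links MPK4 to WRKY33 and WRKY25, rose from a mean of 36.6 ± 6.15 to 62.2 ± 3.29 FPKM (log2 change 0.76, SE 0.110, limma adjusted p = 0.000493). SIB1 and SIB2 bind WRKY33 as activators. SIB2 was at 16.5, 18.9 and 17.4 FPKM in the wild-type samples and 6.76, 7.82 and 4.70 FPKM in the lines and fell with a log2 change of -1.35 ± 0.157 (SE; limma, adjusted p = 0.000129), while SIB1 was not called on the values as deposited (89.5 ± 3.77 FPKM in the wild-type samples and 90.9 ± 3.97 FPKM in the lines).

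Of 8 MAP kinase cascade genes 5 rose and 0 fell in the limma fit, and 3 were not called (median log2 change 0.53), where 25.0% of all genes tested were called higher and 15.7% lower. None had an unadjusted p under 0.05 in the lower direction, and 1 was called lower after rescaling to TPM, as were 48.9% of all genes. All but MKK1 averaged over 30 FPKM. Of all genes tested at that level 50.7% were called higher and 13.7% lower, so the 25.0% is a low comparison for this list. MPK3, a kinase that phosphorylates WRKY33, was at 246, 265 and 273 FPKM in the wild-type samples and 658, 619.7 and 628 FPKM in the lines and rose with a log2 change of 1.28 ± 0.0497 (SE; limma, adjusted p = 1.4e-07). Its partner MPK6 was at 33.8, 36.5 and 34.5 FPKM in the wild-type samples and 35.8, 40.5 and 39.2 FPKM in the lines, with overlapping groups, and was not called. MEKK1, at the head of a MAP kinase cascade, rose from a mean of 29.9 ± 1.32 to 65.6 ± 0.248 FPKM (log2 change 1.11, SE 0.0612, limma adjusted p = 1e-06). The kinase kinase genes MKK4, MKK5 and MKK2 rose by 0.68, 0.70 and 0.38 on the log2 scale (limma adjusted p = 6e-05, 7.24e-05 and 0.00207). MPK4 and MKK1 were not called.

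Of 19 genes described as targets of WRKY factors 17 had a row and 15 were tested. Among these 9 rose and 3 fell (25.0% and 15.7% of all genes tested), with a median log2 fold change of 0.50. As TPM 7 were higher and 6 lower (11.2% and 48.9% of all genes). NCED3 of abscisic acid synthesis is described as repressed by WRKY33 and activated by WRKY57. It was at 6.33, 6.98 and 7.03 FPKM in the wild-type samples and 73.3, 70.0 and 71.9 FPKM in the lines, the largest rise of the list at 3.23. ICS1, the salicylate synthesis gene that WRKY28 activates, rose from a mean of 11.1 ± 0.367 to 25.8 ± 2.16 FPKM (log2 change 1.15, SE 0.0897, limma adjusted p = 9.39e-06). RD29A, ACS2, NPR1, JAZ8 and ACS6 also rose, by 0.30 (ACS6) to 1.46 (RD29A) on the log2 scale. EDS1 and ERF109, described as bound by WRKY40, rose by 1.16 and 0.92 on the same scale (limma adjusted p = 9.6e-07 and 2.68e-07).

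Other targets fell or were not called. PHO1, the phosphate exporter gene that WRKY6 represses, was at 9.09, 10.3 and 9.56 FPKM in the wild-type samples and 3.19, 3.54 and 3.65 FPKM in the lines and fell with a log2 change of -1.26 ± 0.118 (SE; limma, adjusted p = 3.03e-05). PAD3 and CYP71A13, the camalexin synthesis genes activated by WRKY33, were not called higher. CYP71A13 fell from a mean of 1.75 ± 0.417 to 0.276 ± 0.141 FPKM (limma adjusted p = 0.00334) and passed the filter only through wild type, where it is high. PAD3 was at 8.71, 8.83 and 7.73 FPKM in the wild-type samples and 7.46, 6.75 and 6.65 FPKM in the lines, all lines below wild type but not called (limma adjusted p = 0.109). PR1, a marker of salicylate defence whose promoter holds W boxes, was at 35.5, 36.5 and 39.0 FPKM in the wild-type samples and 1.17, 1.46 and 3.24 FPKM in the lines and fell with a log2 change of -3.75 ± 0.221 (SE; limma, adjusted p = 1.52e-06). FRK1, a marker of pattern-triggered immunity downstream of WRKY22 and WRKY29, was at 5.07, 4.94 and 3.90 FPKM in the wild-type samples and 4.02, 3.60 and 5.06 FPKM in the lines, with overlapping groups. ABI5 was not called, PHT1;1 and NCED5 were under the filter, and ABI4 and SAG12 had no row.

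**Figure D5:**
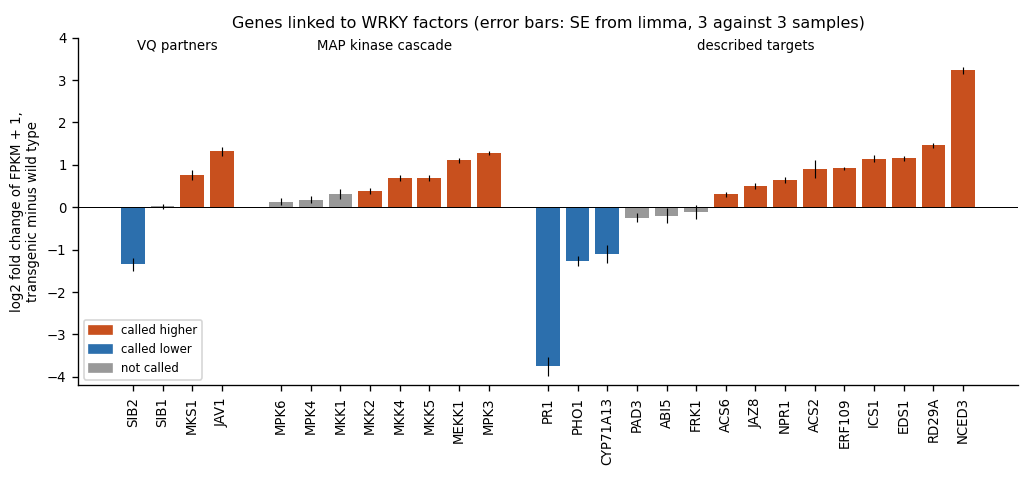
Log2 fold change of FPKM + 1 (transgenic minus wild type, vertical axis) of the tested genes of the VQ partner, MAP kinase cascade and described target lists, with the SE from limma (3 against 3 samples); colours give the call. NCED3 is highest at 3.23 and PR1 lowest at -3.75.

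Other markers moved beside the WRKY genes, and their part in the WRKY results was not tested. Of 5 touch and rapid stress response genes, TCH3 and ZAT10 rose, where 25.0% of all genes tested did. All 5 averaged far above 30 FPKM, and of all genes tested at 30 FPKM or more 50.7% were called higher. TCH3 went from a mean of 929.8 ± 63.5 to 2022 ± 106 FPKM. TCH2, TCH4 and ZAT12 were not called, TCH4 with 1580.1 ± 24.3 FPKM in the wild-type samples and 1575 ± 20.4 FPKM in the lines. The summed level of this list was 3590 to 3755 FPKM in wild type and 5037 to 5298 FPKM in the lines. Of 7 tested clock genes, CCA1, PRR9, PRR7 and GI rose and ELF4 fell (25.0% and 15.7% of all genes tested). PRR9 went from a mean of 2.74 ± 0.629 to 7.78 ± 0.645 FPKM and ELF4 from 36.2 ± 3.66 to 10.5 ± 2.19 FPKM. The summed level of the 8 clock genes was 281.7 to 305 FPKM in wild type and 289 to 309 FPKM in the lines. That sum joins genes that rose and fell, so it does not show whether the clock differed. The labels give no hour of sampling.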

How the data were processed

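Polyadenylated RNA from leaves was sequenced on an Illumina instrument, per the labels' protocols. The authors deposited 1 table of FPKM with 1 column per sample, and all 6 columns were used. TopHat2, DESeq and the TAIR10 build are named in the submitters' processing notes, with no version or role. Which program made the FPKM, with which annotation and strand setting, is not stated in those sources. FPKM do not give read counts. Low values of 2 samples shared 1 ratio in at most 4.82% of genes, so no whole reads were recovered and absolute depth is unknown. Precision therefore rests on the spread among 3 samples a group.

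Groups follow the sample titles. limma 3.58.1 in R 4.3.3 was fitted over all 17093 genes that averaged 1 FPKM or more, on log2(FPKM + 1) with a mean-variance trend and no covariate, and p-values were Benjamini-Hochberg adjusted over all of them. Of 21981 loci, 21548 matched TAIR10.1, used for names, coordinates, promoters and overlaps. The family groups were assigned from general knowledge of the family. Every member is accounted for. Members called with at least a 2-fold change on the log2(FPKM + 1) scale, their well-known partners and members whose call changed when 1 sample was left out are given by sample or by mean ± SD (n = 3). The members, lists and pairs were chosen with earlier results of these data known. Ratios between members were compared with exact permutation tests in scipy 1.17.1. Alternatives were other scalings, pseudocount, filters, no trend, the title number as a block and leaving out each sample.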

Additional observations from a re-analysis of the deposited data

How the results depend on the processing

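The count of WRKY genes called higher stayed between 15 and 18 under all 14 alternatives, and between 16 and 17 when any 1 sample was left out. The count called lower was 9 to 11 with 1 sample left out, but 19 after rescaling to TPM and 6 under a filter of 5 FPKM, where only 31 WRKY genes were tested. For group I, 4 of 8 tested genes were lower after rescaling to TPM, and for group II 12 of 27. With the same rescaling 2 of 4 VQ partner genes, 1 of 8 MAP kinase cascade genes and 6 of 15 described target genes were lower. Among all genes tested 48.9% were lower as TPM. Under the filter of 5 FPKM 3 group II genes were lower, as were 2035 of all 13015 genes. After quantile normalization 2 of 4 VQ partner genes were lower, as were 20.1% of all genes. Rescaling to TPM lowers every line relative to wild type by construction, as the lines had the larger FPKM sums.

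No called WRKY gene turned direction, though 6 of the 27 had no value under the filter of 5 FPKM. WRKY2, WRKY13 and WRKY38 lost their call under at least 1 alternative, and 11 uncalled genes gained one. Among those 11, WRKY4, WRKY7, WRKY20, WRKY27, WRKY29, WRKY32, WRKY47 and WRKY60 were called lower as TPM, as were 48.9% of all genes. Signs turned only in uncalled genes. After rescaling to TPM the log2 fold changes were -0.10 for WRKY1, -0.094 for WRKY8, -0.27 for WRKY57, -0.27 for WRKY69 and -0.20 for WRKY72. WRKY72 was at -0.018 with median-of-ratios factors and -0.023 with a pseudocount of 0.1, and WRKY47 at 0.016 after quantile normalization. With 1 sample left out, the ranges were -0.035 to 0.40 for WRKY8, -0.094 to 0.12 for WRKY47, -0.72 to 0.038 for WRKY50, -0.13 to 0.21 for WRKY57, -0.040 to 0.15 for WRKY69 and -0.16 to 0.22 for WRKY72. The turns as TPM go in the direction of the shift that this rescaling makes, and for the others the cause was not tested.

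The title numbers name a wild-type replicate or a line. Deviations from the group means correlated at -0.035 to 0.049 over the 3 pairs of the same number. These values gave no sign of pairing by number, though 3 samples a group cannot exclude it. With the replicate block 16 WRKY genes were higher and 10 lower, and WRKY13 was the gene no longer called. With no counts, no detection floor can be given for the 5 members under the filter.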

Other observations

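The table held 15 further loci annotated as WRKY genes or with WRKY symbols, beside TTG2, that are not among the 50 members. Most were barely present: 11 did not reach the mean of 1 FPKM, and the highest of those means was 0.663 FPKM. Of the 4 tested, 0 rose in the limma fit and 2 fell, and none had an unadjusted p under 0.05 in the higher direction. WRKY58 was at 1.97, 1.13 and 1.65 FPKM in the wild-type samples and 0.420, 0.539 and 0.406 FPKM in the lines, with a log2 change of -0.82 ± 0.214 (SE; limma, adjusted p = 0.014), and passed the filter only through wild type, where it is high. AT4G31805, annotated as a WRKY family gene, fell from a mean of 4.19 ± 0.632 to 2.81 ± 0.285 FPKM (log2 change -0.44, SE 0.155, limma adjusted p = 0.0476). WRKY19, a gene that joins WRKY, immune receptor and kinase domains, was at 7.07, 5.27 and 5.26 FPKM in the wild-type samples and 10.4, 8.53 and 5.77 FPKM in the lines, with line 3 inside the wild-type range, and was not called. WRKY71, known from shoot branching, stayed under the filter at 0.491, 1.50 and 1.64 FPKM in the wild-type samples and 0.0802, 0 and 0.269 FPKM in the lines, all lines below all wild-type samples.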
